A study of Homo sapiens with 4 samples.

Results

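The genes of the interleukins, the chemokines and their receptors were followed after silencing of HAI-1 in SAS, an established line of human oral squamous carcinoma cells. The members were the genes whose symbol in the deposited annotation is IL, CXCL, CCL, CXCR or CCR followed by a number, together with LIF, LIFR, OSMR, CSF1, CSF2 and CSF3. Rows that name several genes, 8 in all, were left out. This gave 143 genes on 237 probe sets, of 19891 genes on the array, and each gene was read from its probe set with the highest mean signal. For 12 members the current symbol differs from that of the annotation (IL8, for example, is now CXCL8), and current symbols are used here.

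HAI-1, the product of SPINT1, is a membrane-bound inhibitor of serine proteases on epithelial cells. In the knockdown group, SAS cells had been infected with a retrovirus built on pSINsi-hU6 that expresses a short hairpin RNA against SPINT1. In the control group the same vector carried a scrambled hairpin. Both groups are thus virus-infected cells of 1 line, grown in the same serum-containing medium, with 2 arrays each. Nothing in the labels says that the 2 arrays of a group were separate cultures. The p-values below therefore reflect no more than the spread of these samples, and that spread may be technical. The hairpin sequences are shown because they are the only stated difference between the groups. They have the same base composition and hold the same base at 9 of 21 positions, in capitals.
SPINT1 target: GGGcaGGcatagaCttGAaGg
scrambled control: GGGacGGagatttCacGAgGa

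Interleukins and chemokines are secreted proteins through which cells signal to one another. Epithelial tumour cells make several of them, among them IL-6, IL-1 alpha and beta and IL-8, which act on the tumour cells themselves, on leukocytes and on stroma. Many of their genes are switched on by NF-kB and AP-1, and IL-1 signalling itself activates NF-kB. The IL-6 family signals through receptors that contain or resemble gp130 (the product of IL6ST) to the JAK kinases and STAT3, whereas chemokines bind G protein-coupled receptors.

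Values are MAS5 signals, which are probe set intensities on a linear scale, with a detection call (present, marginal or absent) on each array. Between 45.6% and 48.1% of probe sets were called present per array. SPINT1 read 135 and 282 on the knockdown arrays and 1451 and 1445 on the control arrays, a log2 change of -2.79 (SE 0.25, limma adjusted p = 5.7e-05). A second, dimmer SPINT1 probe set, called absent on all 4 arrays, stood at -0.11 (limma adjusted p = 0.78). Of 10 squamous markers, 8 were called present on all 4 arrays, TP63, EPCAM, KRT17 and DSP among them. Leukocytes are a usual source of many members. Of 10 leukocyte markers, 6 were called present on no array, PTPRC, CD3E, CD3D and TYROBP among them. CD14 was called present on all 4 arrays, at 620 and 569 in knockdown cells and 757 and 607 in control cells. LAPTM5, ITGAM and LCP2 were called present on some arrays. The summed signal of 10 leukocyte markers was 1165 to 1238 on the knockdown arrays and 1053 to 1280 on the control arrays. One of them, LAPTM5, rose (log2 change 1.34, limma adjusted p = 0.029). Its control mean of 40.9 lay under the filter on mean signal given below, so it was tested only through the knockdown arrays. Of the other lists, 3 of 10 tested squamous markers rose (KRT14, PKP1 and KRT5) and 1 fell (DSG3). PKP1, with a control mean of 6.80, was likewise tested only through the knockdown arrays. Of 3 tested endothelial markers 2 rose (CDH5 and TEK). Of 3 tested fibroblast markers 1 rose (FBLN1) and 1 fell (FAP). Over all 12594 genes tested, 8.79% rose and 10.6% fell. The fibroblast markers summed to 2901 to 2910 on the knockdown arrays and 3981 to 4305 on the control arrays. Most of that sum was FAP, at 1846 and 1715 in knockdown cells and 3458 and 3199 in control cells. FBLN1 went the other way, at 704 and 805 in knockdown cells and 396 and 457 in control cells. The part of these markers in the results was not tested. In a bulk culture, fewer cells that make a transcript and less of it per cell cannot be told apart.

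Most members were not detected in SAS cells. Of the 143, 31 were called present on all 4 arrays, 26 on 1 to 3 arrays and 86 on none. These calls are those of the brightest probe set, and for 4 of the 86 (IL11RA, IL17RE, IL1R1 and IL1RL1) a dimmer one was called present on some array. Only probe sets whose mean signal over the 4 arrays reached the median of all probe sets (58.9) were tested, which left 48 members. Of these, 13 fell, 4 rose and 31 did not pass a threshold of 0.05 on the adjusted p. Over all 12594 genes tested, 19.4% passed, 10.6% lower and 8.79% higher, against 35.4%, 27.1% and 8.33% of the tested members. The median log2 change was -0.15 over the tested members and 0.02 over all genes tested. A dim gene that is bright in 1 group can pass the filter through that group alone. CXCL17, CCL20, CCL28 and IL1RL2 did so through the control arrays, and IL13 and IL2RB through the knockdown arrays. Among the 31 tested members present on all 4 arrays, 14 passed, against 20.8% of all such genes. The knockdown and control signals stood apart, without overlap, for 34 of the 48 tested members. The same held for 61.7% of all genes tested, with knockdown above control in 32.2% and below it in 29.5%.

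By role, 8 of 21 tested ligands fell and 2 rose, and 5 of 23 tested receptors fell and 2 rose. That is 38.1% and 9.52% of the ligands and 21.7% and 8.70% of the receptors. Of all genes tested, 10.6% fell and 8.79% rose. The antagonists, binding proteins and other genes, 4 tested, held no call. The median log2 change was -0.56 for the ligands and 0.06 for the receptors. These counts and medians include genes whose direction was set by the filter. Among the ligands, CXCL17, CCL20 and CCL28 reached it only through the control arrays and IL13 only through the knockdown arrays. Among the receptors, IL1RL2 did so through the control arrays and IL2RB through the knockdown arrays. The difference between ligands and receptors was not tested.

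**Figure D1:**
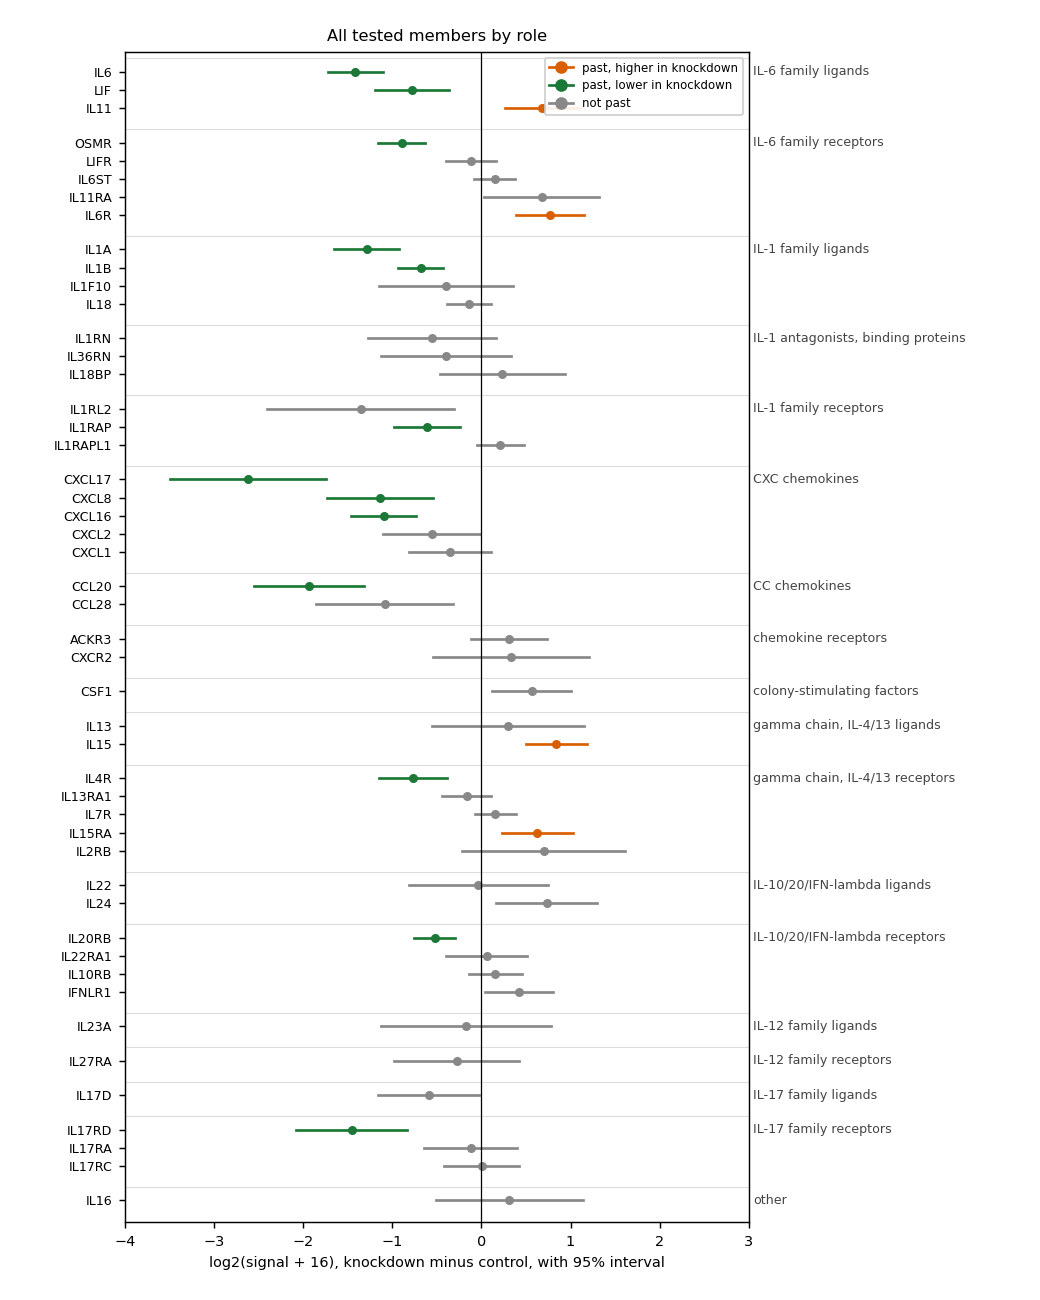
Log2 difference of log2(signal + 16), knockdown minus control, for the 48 tested members, grouped by role, with 95% intervals from the limma fit (2 arrays per group). Orange marks the 4 members past the threshold and higher in knockdown cells, green the 13 lower, grey the rest; the ligands IL6, IL1A, CXCL8 and CXCL16 lie between -1.41 and -1.10. CXCL17 was called absent on all 4 arrays and CCL20 on 3 of 4, so their places depend on the pseudocount.

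**Figure D2:**
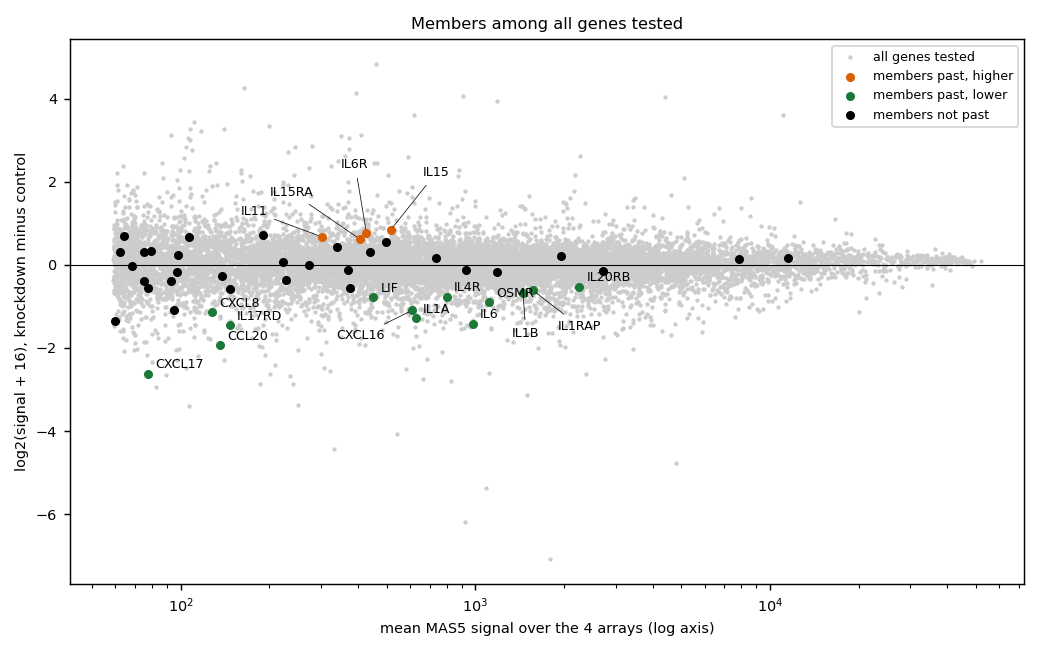
Mean signal over the 4 arrays (log axis) against the log2 difference, knockdown minus control, for all 12594 genes tested (light grey) and the 48 tested members. Members past the threshold are named, in orange where higher and green where lower in knockdown cells; the members spread over most of the range of signal, and the differences of the dim CXCL17 and CCL20 depend on the pseudocount.

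The IL-6 family changed in both directions. IL6, a cytokine of inflammation and of squamous tumours, read 529 and 524 on the knockdown arrays and 1287 and 1588 on the control arrays (chromosome 7, 22733344 to 22738141, plus strand; the build of the file's coordinates is not named in the sources used here). The knockdown arrays lay well below both control arrays and close to each other. IL6 fell 2.67-fold (log2 change -1.41, SE 0.14, limma adjusted p = 9.5e-05), and it passed under every alternative run. LIF, a ligand of the same family that binds LIFR with gp130, read 271 and 391 in knockdown cells and 561 and 582 in control cells. It fell 1.72-fold (limma adjusted p = 0.018), but its call was lost without knockdown array 1 (adjusted p = 0.059), without control array 1 (0.065) and without control array 2 (0.080).

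IL11, the third ligand, moved the other way. It read 383 and 365 in knockdown cells and 206 and 252 in control cells, a rise of 1.60-fold (log2 change 0.68, SE 0.19, limma adjusted p = 0.033). The groups did not overlap. The call of IL11 was lost when any 1 array was left out, at 0.080 and 0.054 for knockdown arrays 1 and 2, and at 0.23 and 0.056 for control arrays 1 and 2 (adjusted p). With each array centred on its median it was 0.052. A second, dimmer IL11 probe set, absent by its calls throughout, stood at 1.21 (adjusted p = 0.12).

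The upstream sequences of IL6 and IL11 are shown because these ligands of 1 family moved in opposite directions. Each is the 250 bases before the transcript start in RefSeq (GRCh38.p14), written 5′ to 3′ on the gene's strand. The motifs searched on both strands were the NF-kB type GGANTTTCC and the AP-1 type TGANTCA. Matches are in capitals, and none overlaps another in the sequences shown. IL6 held an NF-kB type match that begins 72 bases before the start and no AP-1 match. IL11 held an AP-1 match at 96 bases and no NF-kB type match.
IL6 (chr7:22726950-22727199, plus strand): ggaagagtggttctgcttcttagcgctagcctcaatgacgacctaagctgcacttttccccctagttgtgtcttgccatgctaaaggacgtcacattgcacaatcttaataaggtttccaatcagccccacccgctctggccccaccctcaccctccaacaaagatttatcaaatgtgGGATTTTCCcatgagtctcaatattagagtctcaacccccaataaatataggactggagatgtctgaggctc
IL11 (chr19:55370464-55370713, minus strand): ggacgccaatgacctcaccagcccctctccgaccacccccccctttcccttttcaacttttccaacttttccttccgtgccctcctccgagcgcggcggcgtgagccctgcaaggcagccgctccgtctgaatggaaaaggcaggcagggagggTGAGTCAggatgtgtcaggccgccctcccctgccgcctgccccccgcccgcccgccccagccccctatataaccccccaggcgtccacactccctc

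Among the receptors of the family, the ligand-binding chain IL6R rose and the oncostatin M receptor OSMR fell. IL6R read 558 and 525 in knockdown cells and 274 and 352 in control cells, 1.71-fold higher (log2 change 0.77, SE 0.17, limma adjusted p = 0.013). A second IL6R probe set rose as well (log2 change 0.86, adjusted p = 0.011). Without control array 1 the adjusted p of IL6R was 0.12. OSMR, which pairs with gp130, read 748 and 798 in knockdown cells and 1393 and 1510 in control cells. It fell 1.86-fold (log2 change -0.89, SE 0.12, limma adjusted p = 0.00070) and passed under every alternative. Its second probe set fell less (log2 change -0.50, adjusted p = 0.031).

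The shared chain and the other receptors of the family did not pass. IL6ST read 8437 and 8049 in knockdown cells and 7097 and 7796 in control cells, with a log2 change of 0.15 (95% interval -0.09 to 0.38, limma adjusted p = 0.39). Its probe set has 3 alignments in the file. The other 4 tested IL6ST probe sets, called present on all 4 arrays, had log2 changes of 0.56, 0.76, 0.58 and 0.18, and none passed (adjusted p between 0.059 and 0.48). LIFR, the partner of gp130 for LIF, had a log2 change of -0.12 (95% interval -0.39 to 0.16). IL11RA, the receptor of IL-11, did not pass on either tested probe set. The brighter one, called absent on all 4 arrays, stood at 0.68 (adjusted p = 0.15), and the other, called present on 2 arrays, at 0.11 (adjusted p = 0.89). IL31RA lay under the filter.

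Both IL-1 ligands fell while IL-18 did not pass. IL1A, an alarmin stored in keratinocytes, read 404 and 316 in knockdown cells and 824 and 969 in control cells (chromosome 2, 113248250 to 113257823, minus strand). It fell 2.44-fold (log2 change -1.29, SE 0.17, limma adjusted p = 0.00050). IL1B, whose precursor is cleaved by caspase 1, read 1158 and 1067 in knockdown cells and 1782 and 1802 in control cells. It fell 1.60-fold (log2 change -0.68, SE 0.11, limma adjusted p = 0.0023). The groups did not overlap for either gene, and the other IL1B probe set also fell (log2 change -0.81, adjusted p = 0.0012). The other IL1A probe set, dim and under the filter, stood at -0.03, and with the mean over both probe sets the adjusted p of IL1A was 0.081. IL18 read 2444 and 2714 in knockdown cells and 2678 and 2986 in control cells (log2 change -0.13, 95% interval -0.38 to 0.11), so the groups overlapped. IL33 lay under the filter and was called present on no array.

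The IL-1 antagonists held no call. IL1RN, which encodes the IL-1 receptor antagonist, read 65.5 and 54.3 in knockdown cells and 99.6 and 90.7 in control cells. Its log2 change of -0.55 (95% interval -1.27 to 0.17) did not pass (limma adjusted p = 0.29), although the groups did not overlap. IL36RN and IL18BP were called present on 2 arrays each and did not pass. IL1RAP, the accessory chain that IL-1, IL-33 and IL-36 receptors share, read 1372 and 1091 in knockdown cells and 2236 and 1571 in control cells. It fell 1.53-fold (log2 change -0.61, SE 0.17, limma adjusted p = 0.034). Without knockdown array 2 its adjusted p was 0.13 and without control array 1 it was 0.30, and its second probe set, present on all 4 arrays, stood at -0.08 (adjusted p = 0.79). IL1RL2, the IL-36 receptor chain, was absent by its calls on all 4 arrays. Its log2 change was -1.35 (limma adjusted p = 0.081). With a knockdown mean of 28.8 and a control mean of 90.7, it reached the filter only through the control arrays. The receptors IL1R1 and IL1RL1 were under the filter, called absent by their brightest probe sets and present on 2 arrays and 1 array by a dimmer one. IL1R2, also under the filter, was called present on 1 knockdown array.

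The upstream sequence of IL1A is shown as that of the ligand of this family that fell most, in the same form as above. It held an AP-1 type match that begins 12 bases before the start.
IL1A (chr2:112784494-112784743, minus strand): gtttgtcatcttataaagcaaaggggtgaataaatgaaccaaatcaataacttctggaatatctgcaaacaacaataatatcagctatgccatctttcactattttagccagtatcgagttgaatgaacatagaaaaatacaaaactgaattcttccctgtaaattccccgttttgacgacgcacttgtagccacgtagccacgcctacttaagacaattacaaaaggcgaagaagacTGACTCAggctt

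Of the chemokine ligands, 4 of 7 tested fell and none rose, where 10.6% of all genes tested fell. CXCL17 and CCL20, among the 4, reached the filter only through the control arrays. CCL20, the ligand of CCR6, read 48.3 and 45.6 in knockdown cells and 211 and 239 in control cells. It passed (limma adjusted p = 0.00095), but it was called present on control array 2 only. Its log2 change of -1.94 (SE 0.28) was -2.24 with a pseudocount of 1 and -1.38 with 64, so no fold is given. CXCL16, a transmembrane chemokine that binds CXCR6, read 337 and 429 in knockdown cells and 912 and 760 in control cells. It fell 2.14-fold (log2 change -1.10, SE 0.17, limma adjusted p = 0.0013) and passed under every alternative.

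CXCL8, which encodes the neutrophil attractant IL-8, read 71.4 and 76.1 in knockdown cells and 168 and 196 in control cells. It fell 2.20-fold (log2 change -1.14, SE 0.27, limma adjusted p = 0.016), and the groups did not overlap. The call was lost without control array 1 and without control array 2. A second, dimmer CXCL8 probe set was also lower (log2 change -1.93, limma adjusted p = 0.012). With a mean signal of 65.6 and present calls on 2 arrays, it reached the filter only through the control arrays, so it is not separate support. CXCL17, a mucosal chemokine, read 6.87 and 13.8 in knockdown cells and 146 and 143 in control cells. It passed (limma adjusted p = 0.0013), but it was called absent on all 4 arrays, so no fold is given.

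The ligands of CXCR2 besides CXCL8 did not pass. CXCL1 read 208 and 188 in knockdown cells and 280 and 236 in control cells (log2 change -0.35, 95% interval -0.81 to 0.11). CXCL2 read 244 and 352 in knockdown cells and 343 and 561 in control cells (log2 change -0.56, limma adjusted p = 0.16), and the groups overlapped. Without control array 1, CXCL2 passed at 0.043, whereas the mean over its probe sets had the opposite sign (0.14, adjusted p = 0.78). The sequences of CXCL1, CXCL2 and CXCL3 are alike, so their signals are uncertain as to gene. CCL28, a mucosal chemokine, read 37.8 and 75.4 in knockdown cells and 123 and 143 in control cells. Its log2 change of -1.08 missed the threshold (adjusted p = 0.060). It passed without knockdown array 2 (0.023), with the filter on present calls (0.032), under median centring (0.048) and with the mean over its probe sets (0.031).

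Most other chemokines were not detected. CXCL6, CXCL10, CXCL14, CCL2 and CCL5 were called present on no array, CXCL3 and CXCL5 on 1 array of each group and CXCL11 on 1 knockdown array, all under the filter. In all, 18 of 21 CC chemokines and 6 of 14 CXC chemokines were called present on no array.

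The upstream sequence of CXCL8 is shown because it held both motifs, the NF-kB type at 91 bases and the AP-1 type at 137 bases before the start.
CXCL8 (chr4:73740319-73740568, plus strand): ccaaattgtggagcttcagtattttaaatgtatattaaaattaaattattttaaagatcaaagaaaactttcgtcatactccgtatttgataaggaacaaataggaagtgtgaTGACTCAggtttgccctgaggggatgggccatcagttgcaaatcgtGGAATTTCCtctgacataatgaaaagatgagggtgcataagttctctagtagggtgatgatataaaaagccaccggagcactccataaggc

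Over 27305 RefSeq promoters, 1.47% held the NF-kB type motif in the same 250 bases and 6.60% the AP-1 type. Of 11 members that fell and have a promoter in the table, 2 held the first, and so did 3 of 25 tested members that did not pass, CXCL1 and CXCL2 among them. None of the 3 members that rose and have a promoter held it. Of 73 members that were not tested, 7 held the NF-kB type. The AP-1 type was held by 2 of the 11 that fell, 1 of the 3 that rose, 3 of the 25 that did not pass and 11 of the 73 not tested. A match describes these letters only and is not a measured site.

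**Figure D3:**
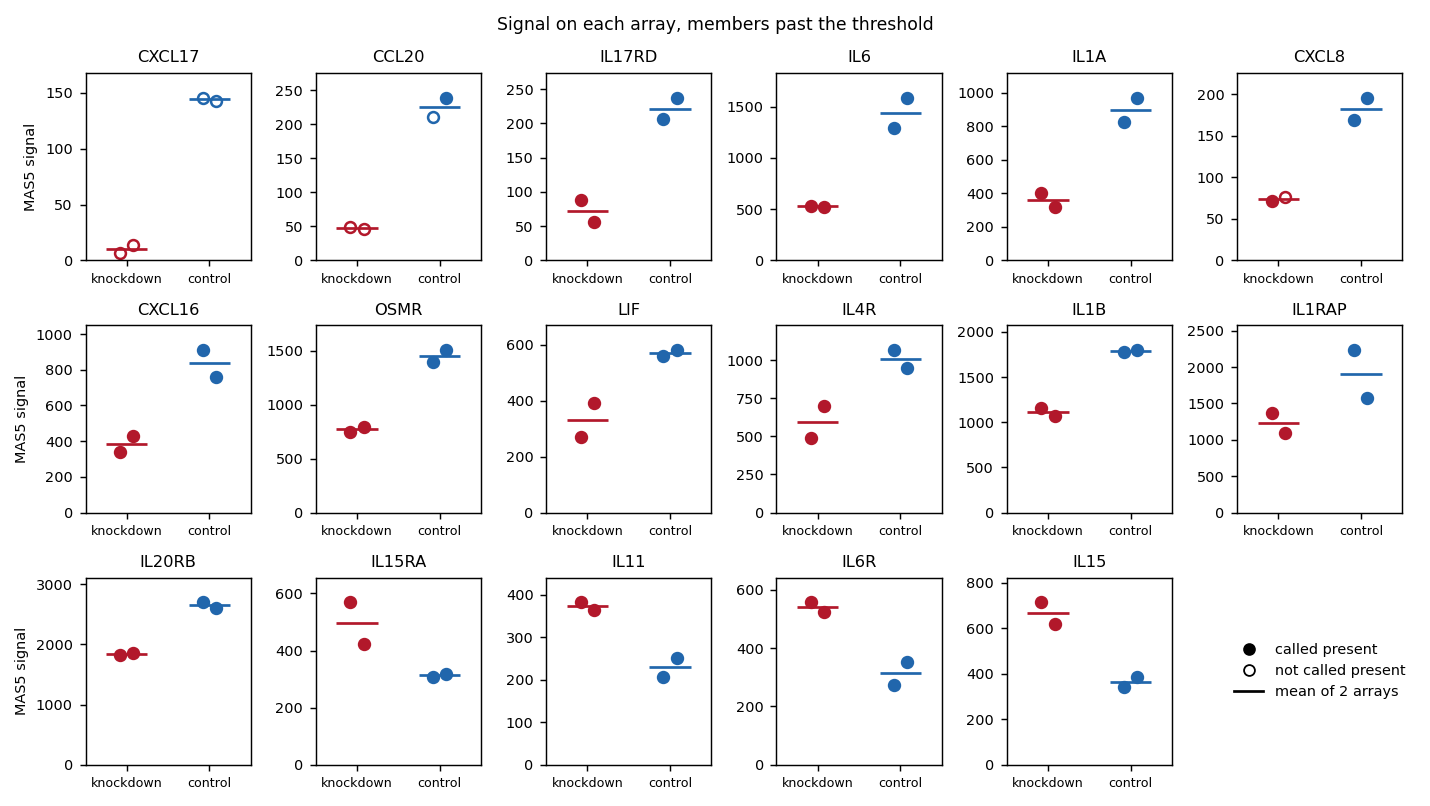
MAS5 signal (linear axis from 0) of the 17 members past the threshold on each of the 4 arrays, knockdown on the left and control on the right of each panel. Filled points were called present and open points were not, and lines are the means of 2 arrays. The groups do not overlap in any panel, as in 61.7% of all genes tested, and the panels were chosen by the test.

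Chemokine receptors were largely undetected. Of 17, 13 were called present on no array, CXCR1, CXCR4, CCR6 and CCR7 among them, and only 2 were tested. ACKR3, an atypical receptor that scavenges CXCL12, read 457 and 511 in knockdown cells and 464 and 322 in control cells, with a log2 change of 0.31 (95% interval -0.11 to 0.73). CXCR2 had a log2 change of 0.33 (95% interval -0.54 to 1.20). The groups overlapped for both.

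CSF1, a growth factor of macrophages, was the only colony-stimulating factor tested. It read 541 and 644 in knockdown cells and 486 and 319 in control cells (log2 change 0.56, SE 0.20, limma adjusted p = 0.086). It passed without control array 1 (0.024). CSF2, which encodes GM-CSF, and CSF3, which encodes G-CSF, were called present on no array.

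IL-15 and its receptor chain both rose. IL15, which supports natural killer and memory T cells, read 716 and 619 in knockdown cells and 344 and 385 in control cells. It rose 1.79-fold (log2 change 0.84, SE 0.16, limma adjusted p = 0.0044), and the groups did not overlap. A second probe set, present on all 4 arrays, stood at 0.29 (adjusted p = 0.47), and with the mean over both the adjusted p of IL15 was 0.0504. IL15RA, which presents IL-15 at the cell surface, read 570 and 425 in knockdown cells and 306 and 320 in control cells. It rose 1.55-fold (log2 change 0.63, SE 0.18, limma adjusted p = 0.040). That call was lost without knockdown array 1 (0.17), control array 1 (0.16) or control array 2 (0.11), and under median centring of the arrays (0.061).

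The receptor chain shared by IL-4 and IL-13 signalling fell. IL4R read 488 and 701 in knockdown cells and 1068 and 949 in control cells, 1.70-fold lower (log2 change -0.77, SE 0.17, limma adjusted p = 0.012). Without control array 1 its adjusted p was 0.075, and a second probe set stood at -0.38 (adjusted p = 0.42). Its partner IL13RA1 had a log2 change of -0.16 (95% interval -0.44 to 0.11). IL7R, a receptor of IL-7 and TSLP, read 12453 and 11913 in knockdown cells and 11137 and 10712 in control cells. Its log2 change of 0.16 (95% interval -0.07 to 0.39) did not pass, and its second probe set stood at the same 0.16. IL2RG, the common gamma chain, was called present on no array, and IL7 was called present on control array 1 only, under the filter.

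Of the IL-10, IL-20 and interferon-lambda receptors, IL20RB fell. This shared chain of the IL-19, IL-20 and IL-24 receptors read 1832 and 1860 in knockdown cells and 2706 and 2606 in control cells. It was 1.43-fold lower (log2 change -0.52, SE 0.10, limma adjusted p = 0.0069), and without control array 1 the call was lost (0.084). IL24, a ligand of that receptor, read 276 and 206 in knockdown cells and 113 and 167 in control cells (log2 change 0.73, adjusted p = 0.085), so it did not pass although the groups did not overlap. IL10RB, IL22RA1 and IFNLR1 had log2 changes of 0.16, 0.06 and 0.43, none past the threshold. IL20RA was under the filter and called present on no array.

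In the IL-17 family, IL17RD fell. IL17RD, also named SEF and known to restrain FGF signalling, read 88.2 and 55.7 in knockdown cells and 206 and 238 in control cells. It was 2.74-fold lower (log2 change -1.46, SE 0.28, limma adjusted p = 0.0059) and passed under each alternative that tested it. The IL-17 receptor chains IL17RA and IL17RC stood at -0.12 (95% interval -0.64 to 0.40) and 0.00 (95% interval -0.42 to 0.43). IL17D had a log2 change of -0.59 (adjusted p = 0.15). Of the IL-12 family, IL23A and IL27RA were tested and did not pass. IL16 was detected in both knockdown samples and in neither control sample, but its signals overlapped (75.1 and 91.2 in knockdown cells, 89.0 and 44.2 in control cells) and it did not pass (adjusted p = 0.62). IL32 was called present on no array.

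Agreement between probe sets of 1 gene was incomplete. Of the 17 members past the threshold, 8 have another tested probe set. It was called the same way for IL1B, IL6R, CXCL8 and OSMR, but that of CXCL8 reached the filter only through the control arrays. For IL11, IL15, IL1RAP and IL4R it had the same sign but did not pass. Over all 27307 probe sets tested, 15.6% passed, 7.33% higher and 8.32% lower. Signals of the groups stood apart for 57.8%, with knockdown above in 31.4% and below in 26.4%.

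Several members lie where their chromosomal neighbours moved together, so each was set beside the tested genes outside the interleukin and chemokine set whose probe sets align within 2 Mb. Of 46 tested members with at least 5 such neighbours, 7 had a neighbour median of at least 0.4 in size. OSMR lies on chromosome 5 (38881716 to 38922597), where 5 of 10 neighbours fell and none rose, with a median log2 change of -0.45. LIFR, in the same region, and CCL28, near 43417657 on that chromosome, had neighbour medians of -0.44 and -0.44. IL7R stood in a region where 11 of 16 neighbours fell (median -0.72), against its own log2 change of 0.16. CXCL8 had a neighbour median of -0.42 over 8 genes. For CXCL1 and CXCL2, close to it on chromosome 4, the median was -0.17 over 9 genes and -0.17 over 10. The median of CXCL8 thus moved with the edges of the window, while 4 neighbours fell and 1 rose in each of these windows. IL1RAP on chromosome 3 fell while its 6 neighbours had a median of 0.44. IL17RC, also on chromosome 3, stood at 0.00 where 22 of 37 neighbours rose (median 0.64). For the other 14 members past the threshold the neighbour median lay within 0.4 of 0, at -0.05 for IL6 and -0.07 for IL1A and IL1B. The part of these regional shifts in the members' values was not tested.

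**Figure D4:**
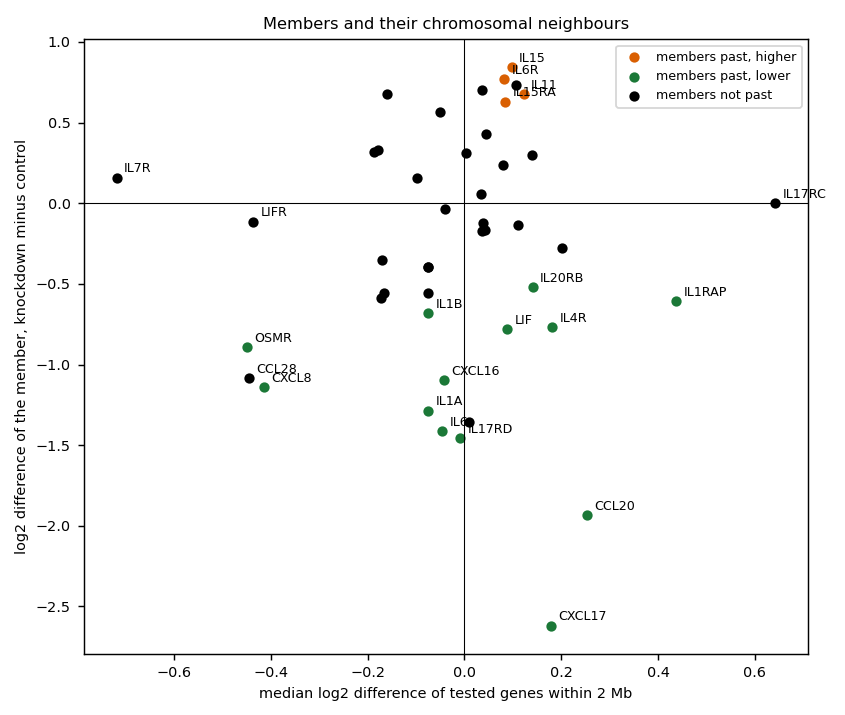
Log2 difference of each tested member, knockdown minus control (vertical axis), against the median log2 difference of the tested genes within 2 Mb that are not members (horizontal axis), for the 46 members with at least 5 such neighbours. OSMR, CCL28 and CXCL8 lie low where their neighbours are low, IL7R and LIFR near 0 where their neighbours are low, and IL1RAP low where its neighbours are high.

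The genes that carry signals from IL-6 type receptors held calls in both directions. Of 25 tested genes of the IL-6 family and JAK-STAT list, 4 rose, 5 fell and 16 did not pass, with a median log2 change of 0.03. That is 36% called, against 19.4% of all genes tested. SOCS2, a feedback inhibitor of growth hormone and cytokine receptors, read 725 and 711 in knockdown cells and 2131 and 2486 in control cells, 3.16-fold lower (limma adjusted p = 1.7e-05). SOCS6 rose 1.71-fold (adjusted p = 0.0022) and SOCS4 fell 1.47-fold (adjusted p = 0.0096). PTPN2, a phosphatase of JAK and STAT proteins, rose by a log2 change of 0.48 (adjusted p = 0.017). Of genes named after their values were seen, STAT3, the main transcription factor downstream of gp130, fell 1.39-fold (adjusted p = 0.023), and SOCS3, a gene that STAT3 induces, had a log2 change of 0.11 (95% interval -0.15 to 0.38).

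Of 25 tested genes of IL-1 and IL-17 receptor signalling and IL-1 processing, 2 rose, 1 fell and 22 did not pass (median log2 change -0.02). That is 12% called, against 19.4% of all genes tested. IRAK1, a kinase of the IL-1 receptor complex, read 4422 and 4615 in knockdown cells and 10540 and 10984 in control cells, 2.38-fold lower (limma adjusted p = 2.9e-05). It lies on chromosome X, where 25 of 39 neighbours fell, with a median log2 change of -0.74. Its relative IRAK2 rose 1.70-fold (adjusted p = 0.011) beside neighbours of which 21 of 36 rose (median 0.64). TRAF3IP2, the adaptor of the IL-17 receptor, rose 1.62-fold (adjusted p = 0.0029), and HAX1 did not pass (log2 change 0.34, adjusted p = 0.057). Of 8 tested genes of a list of other cytokines, chemokines and receptors, 1 rose. That is 12.5%, against 8.79% of all genes tested called higher. The gene was TSLP, an epithelial cytokine that signals through IL7R. It read 173 and 140 in knockdown cells and 78.7 and 55.9 in control cells (log2 change 1.05, limma adjusted p = 0.037). MIF and EPOR, with log2 changes of 0.24 and -0.45, did not pass. ACKR3, also in that list, is a member by its symbol in the annotation, CXCR7, and is described above.

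**Figure D5:**
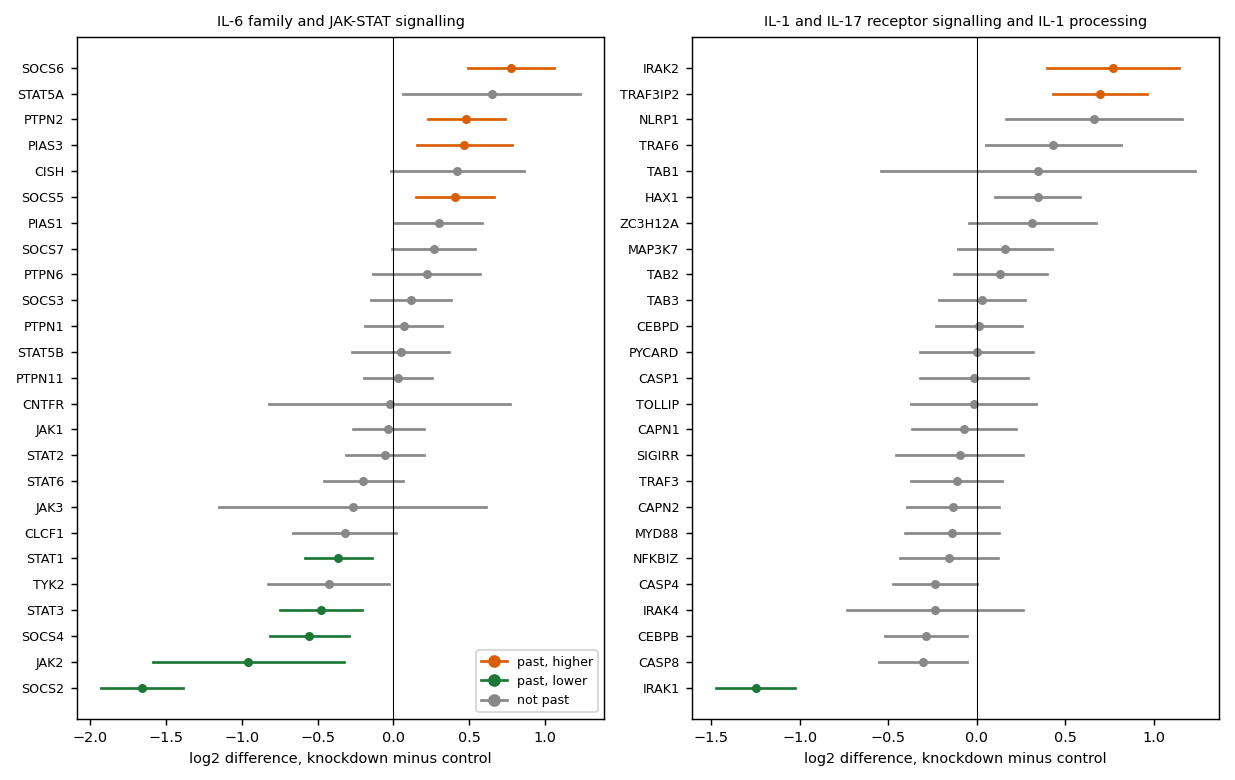
Log2 difference of log2(signal + 16), knockdown minus control, with 95% intervals, for the 25 tested genes of the IL-6 family and JAK-STAT list (left) and the 25 tested genes of the IL-1 and IL-17 signalling list (right). Orange marks genes past the threshold and higher, green past and lower, grey not past; SOCS2 and IRAK1 lie lowest in their panels.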

How the data were processed

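RNA of SAS cells was measured on 4 Affymetrix arrays, 2 per group. Per the submitters' processing notes the deposited intensity values are MAS5 signals (no version given), and per the file headers each has a detection p-value and call. The deposited log2 values are log2 signals centred by row on their median (54675 of 54675 rows within 1e-05), so the signals were used. The build of the alignments is not given in the sources used here.

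Signals were analysed as log2(signal + 16), which understates the changes of dim genes. The 62 control probe sets were left out, and 27307 probe sets with a mean signal of at least 58.9 entered limma 3.58.1 in R 4.3.3 (lmFit, eBayes with a variance trend, two-sided, 2 residual degrees of freedom, prior 8.71), with Benjamini-Hochberg adjustment over all of them and a threshold of 0.05. With 2 arrays a side, exact permutation could reach no p below 0.333. The number of arrays limits the precision. The fit was tested on simulated data.

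The members and gene lists were chosen with earlier results of these data known. The genes named are the members past the threshold, members present on both arrays of 1 group only, a fixed list of well-known members, and up to 4 genes of each signalling list. Of the lists, 2 genes are not reported here and were left out of the counts. Symbols, promoters and neighbours come from RefSeq GRCh38.p14 and the file's own alignments. Alternatives were other pseudocounts, filters and scalings, no variance trend, a replicate block, each array left out, and the mean over a gene's probe sets.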

Additional observations from a re-analysis of the deposited data

How the results depend on the processing

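All 17 members past the threshold kept their direction under every alternative that tested them, and CXCL16, IL17RD, IL6 and OSMR also stayed past it. So did CCL20 and CXCL17, but they reached the filter only through the control arrays. The filters on present calls and on the upper quartile left both untested. The upper quartile filter also left CXCL8, IL11 and IL17RD untested. Without the filter on dim probe sets 2211 probe sets were called (921 higher, 1290 lower) against 4272 (2001 higher, 2271 lower), and 10 members, 1 of them higher. CXCL8, IL11, IL15RA, IL1RAP, IL4R, IL6R and LIF lost their calls there, where the adjustment ran over every probe set that is not a control. Without the variance trend 1491 probe sets were called (628 higher, 863 lower), and 8 members, 8 lower and 0 higher. IL11, IL15, IL15RA, IL1B, IL1RAP, IL20RB, IL4R, IL6R and LIF were lost, and the cause was not tested. With each array centred on its median 2 members were called higher, and 35.1% of all called probe sets were higher against 46.8% as reported. Leaving out 1 array at a time gave 2163 to 4719 calls over all probe sets (1024 to 2157 higher, 1139 to 2578 lower) and 11 to 16 members (2 to 3 higher, 9 to 13 lower). The lowest counts came without control array 1 (2163 probe sets, 11 members), and 2444 probe sets and 13 members were called without control array 2. The array left alone in its group is then assumed to vary like the others. The arrays share replicate numbers in the labels, but same-numbered arrays did not deviate together (r = -0.02; probe sets are not independent points). With the replicate block 4581 probe sets and 20 members were called, all 17 among them, and CCL28, CXCL2 and IL1RL2 in addition. CCL28 and IL1RL2 reached the filter only through the control arrays. The mean over a gene's probe sets gave 13 members: 12 of the 17, and CCL28 in addition. IL15, IL1A, IL1RAP and IL4R were lost and IL17RD was not tested. A filter on the mean log2 value, added after the data were seen, gave 4244 probe sets and 16 members. Signal over background limits what the arrays show, since 86 members were called present on no array by the probe set used.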
